A study of Saccharomyces cerevisiae with 2 samples.

Results

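The regions described here are the 275 windows of 400 nt that begin 1 nt after the annotated end of each nuclear tRNA gene of budding yeast, out of 6198 such windows in the deposited tables. They were chosen by the feature type given in the tables, and no measured value entered the choice. Of the 275 windows, 182 (66.2%) held no other of these 6198 features on the same strand and are called free, against 74.6% of the windows of all features. The tables' neighbour columns also name long terminal repeats, ORFs outside the 6198 and replication origins, and 12 free windows held a same-strand feature of that kind, 8 of them a long terminal repeat. The 400 nt window of an upstream same-strand feature reached into 8 free windows, whose reads may also belong to that feature. The other 93 windows overlapped a same-strand feature of the 6198, and their reads are reported apart because they cannot all be assigned to the tRNA gene's side. All reads came from 1 strain, JZY65, which lacks the RPB4 coding sequence and was grown in rich medium at 30 °C to log phase. Poly(A) sites were mapped in its total RNA with 3' READS, which places each tailed RNA's last base before the poly(A) tail, in 2 biological replicates that form 1 group. The deletion is shared by every sample and no parental strain was among them, so no value here is an effect of losing Rpb4, a subunit of RNA polymerase II. The replicates differ in depth, with 27449030 window reads over all features in replicate 1 and 24960880 in replicate 2.

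tRNA genes are transcribed by RNA polymerase III, which stops at a run of thymidines shortly after the mature tRNA sequence. The short trailer of the precursor is trimmed and CCA is added, so a finished tRNA normally carries no poly(A) tail. In yeast the TRAMP complex adds short poly(A) tails to defective or unprocessed tRNAs, which marks them for degradation by the exosome, while the cleavage and polyadenylation machinery tails the transcripts of RNA polymerase II. In the names used here, tS(UGA)E stands for a serine tRNA with anticodon UGA, and the letter after the bracket stands for the chromosome.

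Few poly(A)-tailed reads ended downstream of tRNA genes. The 275 windows held 31995 reads in replicate 1 and 28753 in replicate 2, or 0.117% and 0.115% of all window reads. The free windows held 22297 and 19813 of these. Their median was 43 reads in each replicate, with lower and upper quartiles of 14 and 115.5 reads in replicate 1 and 11 and 114 in replicate 2. Free windows downstream of small nucleolar RNA (snoRNA) genes, 35 in number, had medians of 371 and 198 reads, and the 4384 free windows downstream of open reading frames (ORFs) had medians of 1026.5 and 995. tRNA windows were thus the least read of these 3 classes in both replicates, on a scale of reads per window of equal length. The tRNA windows that were not free had medians of 16 and 16 reads.

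The low level was not an absence of reads. No read in either replicate was found in 9 of the 275 windows (3.27%), against 3.58% of all features, and 5 of these 9 were free windows. Windows with at least 100 reads in each replicate numbered 59 (21.5%), of which 47 were free, against 81.4% of all features. A minimum of 20 reads in each replicate was met by 140 tRNA windows (50.9%), against 88.8% of all features. It was used below for mean endpoints, leading positions and the spread of reads. Of the 140 windows, 107 were free. The other 75 free windows are described by their reads, including those within 20 nt of the tRNA end, which were counted without this minimum. The lowest replicate value among the 107 was 22 reads, and the highest lower value among the 75 was 19.

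**Figure D1:**
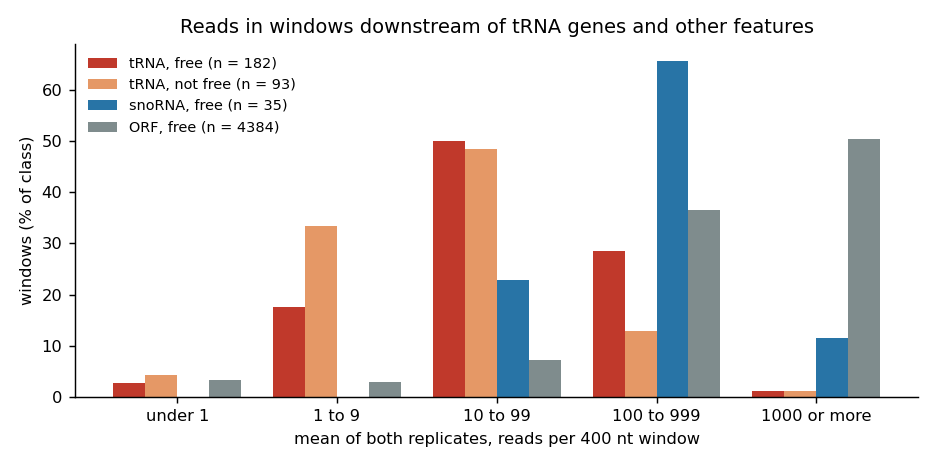
Share of windows (%) by the mean of both replicates' reads per 400 nt window, for free tRNA windows, tRNA windows that are not free, and free snoRNA and ORF windows. Most tRNA windows lie at 10 to 99 reads or below, and most snoRNA and ORF windows at 100 reads or above.

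A few windows held much of the signal. The 10 most read free windows took 38.5% and 36.5% of the free windows' reads. The most read was tS(UGA)E, known as SUP19 after its suppressor alleles (chromosome V, 288443 to 288524, minus strand), with 1567 and 1031 reads. A long terminal repeat on the same strand reaches into this window, 381 nt after the tRNA end. Its most used position lay 177 nt after the tRNA end in both replicates, at coordinate 288266, and took 37.9% ± 0.964 (SD, n = 2) of the reads. Positions 178 and 179 held much of the rest, so most reads formed 1 narrow cluster. A further 31 reads in each replicate ended within 20 nt of the tRNA end. The mean endpoint, which is the read-weighted mean position within the window, was 174.4 nt ± 0.0986 (SD, n = 2).

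Next came the aspartate tRNA gene tD(GUC)O (chromosome XV, 571958 to 572029, plus strand) with 1263 and 798 reads, which lay almost wholly at 145 to 150 nt. The most used positions were 146 nt (replicate 1) and 147 nt (replicate 2). The histidine tRNA gene tH(GUG)G2 (chromosome VII, 319781 to 319852, plus strand) had 1085 and 741 reads at the far side of its window. Its leading position was 376 nt in both replicates, its mean endpoint was 383.8 nt ± 3.90 (SD, n = 2), and 190 and 120 reads ended at 399 nt. Ends past 400 nt were outside the measurement, so whether that cluster goes on past the window is not known.

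Other much read windows spread their reads widely. The spread is given as the effective number of positions, which is 1 when all reads share a position and grows as reads are divided evenly over more of them. The arginine tRNA gene tR(UCU)G2 had 1040 and 950 reads over an effective 24.0 ± 2.07 positions (SD, n = 2), led by 147 nt in both replicates. The lysine tRNA gene tK(CUU)M had 761 and 960 reads over 34.8 ± 1.82 positions (SD, n = 2), led by 186 nt in both. A further lysine gene, tK(UUU)O, had 587 and 639 reads, led by 51 nt in both replicates, with a mean endpoint of 71.0 nt ± 6.09 (SD, n = 2).

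The remaining windows among the 12 most read were also led by sites well inside the window. The lysine gene tK(UUU)D had 852 and 695 reads, led by 149 nt in both replicates. The phenylalanine gene tF(GAA)P1 had 503 and 469 reads, with 40.7% ± 0.604 (SD, n = 2) of them at 85 nt. The threonine gene tT(AGU)C had 414 and 538 reads and a mean endpoint of 332.4 nt ± 6.26 (SD, n = 2). In tK(CUU)P (511 and 411 reads) and tD(GUC)G2 (487 and 417 reads) both replicates were led by the same position, at 168 and 182 nt. In the glycine gene tG(GCC)G1 (396 and 340 reads) the replicates were led by different positions, 124 and 139 nt.

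Some windows of moderate depth had almost all reads at 1 base. The elongator methionine tRNA gene tM(CAU)D, or EMT1 (chromosome IV, 1175829 to 1175901, plus strand), had 374 and 287 reads, of which 328 and 259 ended at 133 nt, coordinate 1176034. That position took 89.0% ± 1.80 (SD, n = 2) of the window. The lysine gene tK(CUU)G1 (chromosome VII, 122269 to 122341, plus strand) had 326 and 244 reads, of which 287 and 212 ended at 335 nt. The next highest leading shares were 66.0% ± 5.26 at 91 nt in tL(UAA)N, 63.5% ± 3.30 at 227 nt in tN(GUU)P and 59.6% ± 8.97 at 200 nt in tD(GUC)M (SD, n = 2 each). All 5 windows had the same leading position in both replicates.

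**Figure D2:**
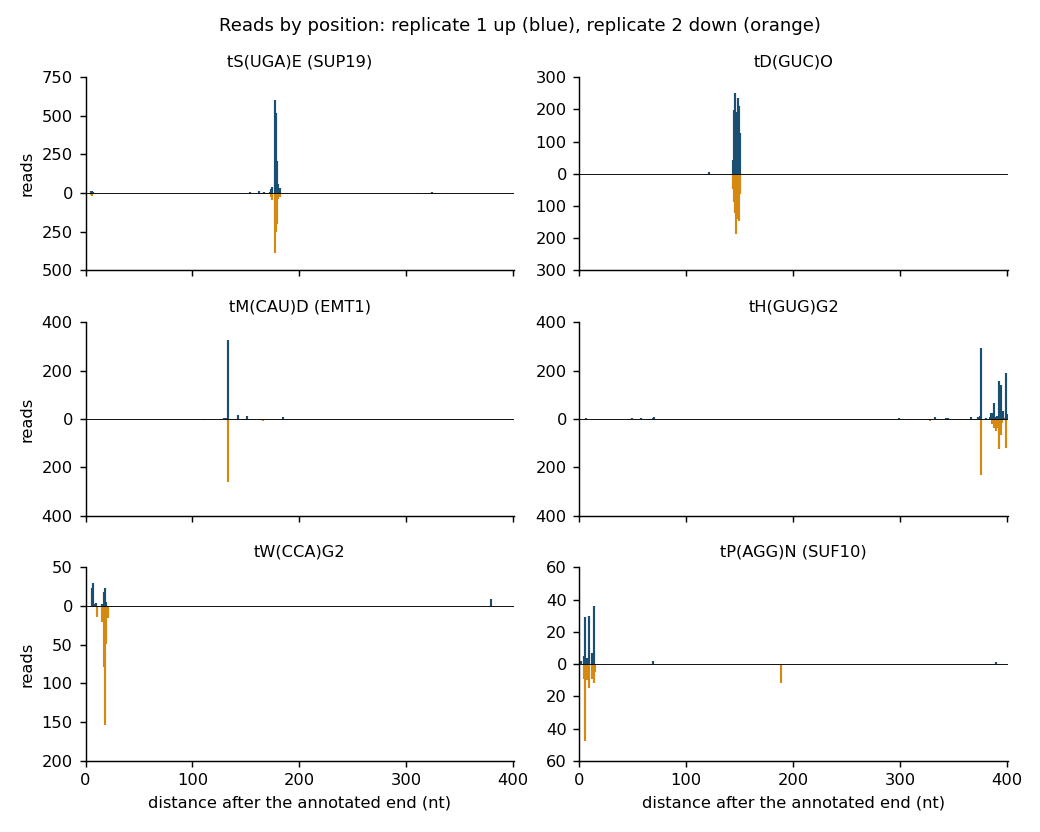
Reads at each distance (nt) after the annotated tRNA end in 6 free windows, with replicate 1 drawn upwards and replicate 2 downwards on the same linear scale. Most reads of tS(UGA)E, tD(GUC)O and tM(CAU)D sit in narrow clusters at about 177, 147 and 133 nt. Most of those of tH(GUG)G2 sit at 376 nt and beyond, and of tW(CCA)G2 and tP(AGG)N within 20 nt of the tRNA end.

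Over the 107 free windows with 20 reads in each replicate, reads ended some way past the gene. The median mean endpoint was 147.1 and 149.1 nt, or 148.1 nt ± 1.45 (SD, n = 2). The middle 90% of windows lay between 46.4 and 302.5 nt. Free snoRNA windows had a median of 141.4 nt ± 2.56, free ORF windows 131.3 nt ± 1.01, and all features 124.4 nt ± 0.866 (SD, n = 2 each). The 33 tRNA windows that were not free had a median of 143.9 nt ± 0.657 (SD, n = 2).

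With each window weighted equally, 65.2% ± 1.14 (SD, n = 2) of the reads of free tRNA windows ended 51 to 200 nt after the gene. The share was 56.9% ± 0.744 in free snoRNA windows and 73.1% ± 0.0703 in free ORF windows. Leading positions lay in that span in both replicates in 67 of the 107 tRNA windows. The same held for 17 of 33 free snoRNA windows and 2965 of 4012 free ORF windows. The 50 nt bin with the largest share was 101 to 150 nt, with 24.3% ± 0.652, followed by 151 to 200 nt with 22.7% ± 0.303 (SD, n = 2 each). Beyond 300 nt lay 9.61% ± 0.813 of the tRNA reads, against 8.43% ± 2.34 in snoRNA windows and 6.49% ± 0.0545 in ORF windows (SD, n = 2 each).

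**Figure D3:**
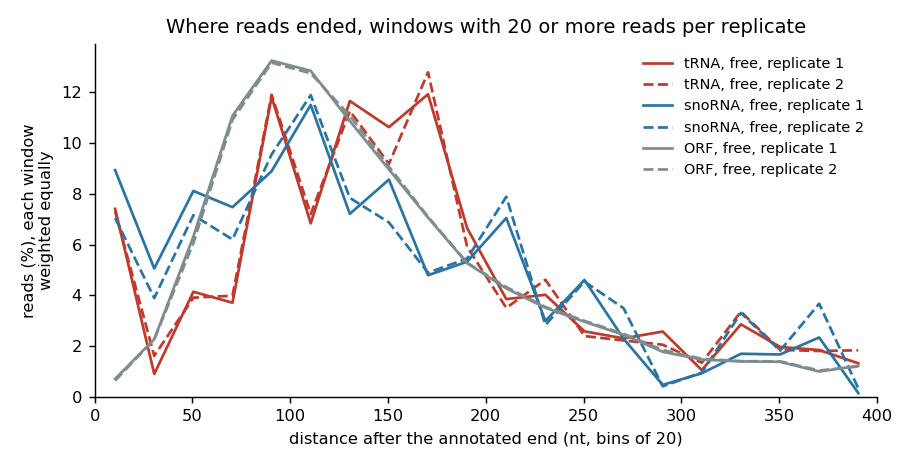
Percent of reads in bins of 20 nt after the annotated end, each window with 20 or more reads per replicate weighted equally, for free tRNA (n = 107), snoRNA (n = 33) and ORF (n = 4012) windows; solid lines are replicate 1 and dashed lines replicate 2. The tRNA curve starts at 7.40% and 7.30% in the first bin, drops, and has its highest bins between 80 and 180 nt. The snoRNA curve starts at 8.93% and 7.05%, and the ORF curve at 0.706% and 0.639%.

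The median share of the leading position in free tRNA windows was 27.7% ± 0.539, against 18.5% ± 1.85 in free snoRNA windows and 33.3% ± 0.247 in free ORF windows (SD, n = 2 each). The median effective number of positions was 7.70 ± 0.628, against 15.1 ± 4.37 and 8.39 ± 0.0347. Both measures move with depth. Free tRNA windows with a mean of 20 to 100 reads had a median leading share of 30.8%, those with 100 to 1000 reads 24.0%, and the shares of ORF windows of the same depths were 38.1% and 31.8%.

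A separate group of reads ended within 20 nt of the tRNA end, the stretch that holds the trailer of the precursor. In the free windows 1038 of 22297 reads of replicate 1 ended there, or 4.66% (95% Wilson interval 4.39 to 4.94%), and 1039 of 19813 reads of replicate 2, or 5.24% (4.94 to 5.56%). The share was 2.38% and 2.16% in tRNA windows that were not free, 18.2% and 7.79% in free snoRNA windows and 0.739% and 0.677% in free ORF windows. The snoRNA share differed between replicates by more than the tRNA share did. Reads were not marked by molecular identifiers, so these intervals cover counting error only.

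Reads this close to the gene were not found downstream of most tRNA genes. A read at 1 to 20 nt was seen in both replicates in 48 of the 275 windows (17.5%), 32 of them free, against 16.1% of all features, and in at least 1 replicate in 111 windows (40.4%), against 33.8% of all features. The count with such a read in both replicates was close to the background, while the share of reads there was above that of ORF windows in both replicates. Of 35 free snoRNA windows, 15 (42.9%) had a read at 1 to 20 nt in both replicates. The leading position lay within 20 nt in 8 and 10 of the 107 free tRNA windows (7.48% and 9.35%). Free snoRNA windows were close to this, with 2 and 3 of 33 (6.06% and 9.09%). Free ORF windows were lower, with 25 and 22 of 4012 (0.623% and 0.548%). The leading position lay there in both replicates in 6 tRNA windows and in either in 12.

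Most of these near-end reads belonged to the tryptophan family tW(CCA) and the proline family tP(AGG), a pair of families singled out after their values were seen. Their 8 free windows held 581 of the 1038 near-end reads of replicate 1 (56.0%) and 673 of the 1039 of replicate 2 (64.8%), while they held 5.50% and 6.23% of all free window reads. Without them, 2.17% and 1.97% of the free windows' reads ended within 20 nt. The 5 windows with most such reads held 59.1% of those of both replicates together.

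The tryptophan gene tW(CCA)G2 (chromosome VII, 878710 to 878815, minus strand) had 109 of 118 reads within 20 nt in replicate 1 (92.4%, 86.1 to 95.9%) and 326 of 343 in replicate 2 (92.2 to 96.9%). Within that stretch the replicates differed, since replicate 1 was led by 7 nt with 30 reads and replicate 2 by 18 nt with 154 reads. tW(CCA)K (chromosome XI, 302918 to 303023, plus strand) had 219 of 368 reads there in replicate 1 (59.5%) and 34 of 77 in replicate 2 (44.2%). In replicate 1, 170 of those 219 reads ended at 6 nt, against 12 in replicate 2. tW(CCA)P (chromosome XVI, 56169 to 56274, minus strand) had 77 of 138 and 81 of 115.

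Members of the tryptophan family did not behave alike. tW(CCA)M had 114 and 119 reads and none within 20 nt in either replicate, and tW(CCA)G1 had 279 and 323 reads with 18 and 9 there. tW(CCA)J had 9 and 0 reads in all. Copies of 1 family are nearly identical inside the gene, and a read ending just past the gene is mostly gene sequence. The sources used here do not say how reads matching several copies were placed, so the split of near-end reads between these copies is uncertain.

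Both free windows of the proline family were rich in near-end reads. tP(AGG)N, the frameshift suppressor gene SUF10 (chromosome XIV, 631846 to 631917, minus strand), had 114 of 117 reads within 20 nt in replicate 1 (97.4%, 92.7 to 99.1%) and 114 of 126 in replicate 2 (90.5%, 84.1 to 94.5%). tP(AGG)C, the frameshift suppressor gene SUF2 (chromosome III, 123577 to 123648, minus strand), had 44 of 83 and 109 of 132, and 6 nt led in both replicates. Outside these families the leucine gene tL(GAG)G stood next, with 48 of 62 and 23 of 41 reads within 20 nt. The serine gene tS(UGA)P, or SUP16, had 33 of 54 and 24 of 40.

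Several of these windows had the shortest mean endpoints among the 107 free windows with 20 reads in each replicate. The 5 shortest were 19.4 nt ± 8.23 in tP(AGG)N, 28.8 nt ± 15.5 in tW(CCA)G2, 35.8 nt ± 17.9 in tP(AGG)C, 36.3 nt ± 13.3 in tL(GAG)G and 38.5 nt ± 2.44 in tW(CCA)K (SD, n = 2 each). With such SDs their order is not settled. Outside that ranking, for example, all reads ended within 20 nt in tL(CAA)G3 (free, 30 and 17 reads) and tL(CAA)D (not free, 25 and 39 reads). The single positions with most near-end reads over all free windows were 6 nt with 282 and 117 reads, 7 nt with 171 and 45, 5 nt with 102 and 109, and 18 nt with 29 and 156. Replicate 1 was led by 6 nt and replicate 2 by 18 nt, while 5 nt was the third in both. Both leads rested on single windows. tW(CCA)K held 170 of the 282 reads of replicate 1 at 6 nt, and tW(CCA)G2 held 154 of the 156 of replicate 2 at 18 nt.

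**Figure D4:**
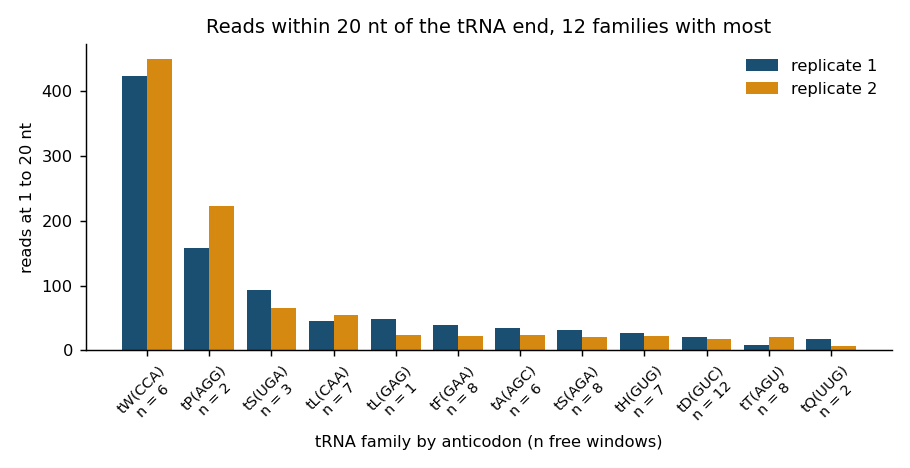
Reads that ended 1 to 20 nt after the tRNA end, summed over the free windows of each anticodon family (n below each name), for replicate 1 and replicate 2; the 12 families with most such reads are drawn. tW(CCA) has 423 and 450 reads and tP(AGG) 158 and 223, and the other families drawn stay below 100.

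The 88 windows that held none of the 6198 features on either strand had a near-end share of 9.75% ± 0.798 (SD, n = 2), against 4.95% ± 0.416 over all 182 free windows. In the 68 windows that also held none of the repeats, other ORFs and origins named in the neighbour columns, the share was 8.28% and 9.07%. All 8 free windows of the tW(CCA) and tP(AGG) families were among the 88, and 5 of them among the 68.

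The other members were read very unevenly within and between amino acids. The 16 free windows of lysine tRNA genes summed to 3649 and 3590 reads, the highest total of any amino acid in both replicates. Valine had a median of 122.5 and 108 reads over 12 windows and tryptophan 128 and 117 over 6. At the low end, cysteine had 6.5 and 0 over 4 windows, glutamate 8 and 12.5 over 8 and isoleucine 11 and 12 over 11. Copies that share an anticodon also differed. In all 16 families with at least 6 free windows, the highest window had at least 10 times the lowest plus 1 read in both replicates. The 11 free tV(AAC) windows, for example, ranged between 1 and 333 reads in replicate 1 and between 1 and 351 in replicate 2. Copies of a family are not replicates, and no test was made between families.

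Among single-copy tRNA genes, TRT2, a threonine tRNA gene (tT(CGU)K) upstream of the a-factor exporter gene STE6, had 106 and 134 reads, led by 93 nt in both replicates. TRR4, an arginine tRNA gene (tR(CCG)L), had 85 and 92 reads, led by 149 nt in both. Both windows had more reads than the median free window in each replicate.

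Neighbouring genes differed between windows. An ORF that pointed towards the tRNA gene from the other strand was the downstream neighbour within 400 nt of 86 free windows, which had medians of 62 and 53.5 reads. The other 96 free windows had medians of 31 and 24 reads. The part of gene spacing and orientation in this difference was not tested.

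The convergent ORFs include some outside the 6198 features. Where one of them did not overlap the tRNA gene, most tRNA-side reads ended before reaching it. In 58 such windows with 20 reads in each replicate, the median distance to the ORF's stop codon was 219.5 nt. A median of 92.8% and 93.0% of the reads ended in that gap, or 86.3% and 84.7% of their summed reads. Free windows with a convergent ORF within 400 nt had median endpoints of 147.1 and 147.2 nt. Those without one had 149.6 and 158.2 nt, also short of 219.5 nt. Any part of the ORF in where reads ended was not tested. The leading position fell in the gap in both replicates in 43 windows and inside the ORF in both in 7. The window of tD(GUC)O had all 1263 and 798 reads before the end of YOR131C, 153 nt away. The window of tM(CAU)D had 373 of 374 and 286 of 287 before the end of ATP22, a mitochondrial translation factor gene 219 nt away. That of tK(UUU)O had 515 of 587 and 512 of 639 before YOR059C, 168 nt away, so reads within that gene are not rare in every window.

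Upstream, tRNA genes were often next to retrotransposon remnants. The feature before the gene was a long terminal repeat for 162 of the 275 tRNA genes (58.9%), at a median distance of 117 nt, against 1.43% of ORFs and 248 of all 6198 features. The 116 free windows of this kind had medians of 38 and 42.5 reads, and the 54 with an ORF upstream had 74.5 and 53.5. The part of the 5' neighbour in this difference was not tested.

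Among the 93 windows that were not free, the first same-strand feature was an ORF in 88, a tRNA gene in 4 and a snoRNA gene in 1, at a median of 231 nt. Before that feature lay 83.2% and 84.9% of their reads. The most read tRNA window of all was in this class, that of the arginine gene tR(ACG)D (chromosome IV, 619969 to 620041, minus strand), with 3198 and 2812 reads. Its leading position was 124 nt in both replicates, and all reads lay before SLU7, a splicing factor gene that begins 324 nt away. The mean endpoint of 122.0 nt ± 0.0498 (SD, n = 2) places this cluster well short of SLU7.

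The next 4 in this class had fewer reads. tR(ACG)K had 1021 and 770 reads over an effective 26.6 ± 4.15 positions (SD, n = 2), led by 88 nt in both replicates. The glutamate gene tE(UUC)K had 628 and 792 reads, led by 62 and 57 nt. The proline gene tP(UGG)M, or SUF7, had 575 and 513 reads, led by 187 nt in both replicates. In tP(UGG)O1, with 604 and 426 reads, the annotated ORF YOL013W-A already spans the tRNA end, so the origin of its reads cannot be told apart.

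Reads inside the annotated tRNA genes were rarer still. There were 405 in replicate 1 and 321 in replicate 2, or 1.25% and 1.10% of the inside and window reads together. A read inside the gene in both replicates was found for 15 of the 275 genes (5.45%), against 77.1% of all features. No inside read in either replicate was found for 236 genes, while 5424 of the 6198 features had one in at least 1 replicate. ORFs are much longer than tRNA genes, and these counts are not per length. Of the 35 snoRNA genes with free windows, 25 (71.4%) had an inside read in both replicates. Inside reads were 32.2% and 38.6% of the inside and window reads of those 35 genes. The tyrosine gene SUP4 (tY(GUA)J2) had 108 and 52 reads inside and 5 and 0 in its window. The glycine gene SUF3 (tG(CCC)D) had 41 and 45 inside against 9 and 2 in the window, and the tyrosine gene SUP3 (tY(GUA)O) had 37 and 45 against 8 and 9. tR(ACG)J had 64 and 12 inside against 77 and 55, and tV(AAC)M3 had 40 and 24 against 0 and 1. Reads inside a gene of a family of near-identical copies are uncertain in their placement.

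The replicates agreed on positions less often in tRNA windows than over all features, and free snoRNA windows were not uniformly above them. The leading position was the same in 42 of the 107 free windows (39.3%), and in 14 of the 33 that were not free, against 79.5% of all features with 20 reads in each replicate. It lay within 5 nt in 67 (62.6%), against 84.4% of all features and 21 of 33 free snoRNA windows (63.6%). The mean endpoints differed by over 20 nt in 32 of the 107 (29.9%), against 5.23% of all features, and the median difference was 8.22 nt against 2.34 nt. Of 33 free snoRNA windows, 17 (51.5%) had the same leading position, 13 had mean endpoints over 20 nt apart, and the median difference was 13.1 nt. The median correlation between the profiles of both replicates was 0.586 in free tRNA windows and 0.977 in free ORF windows, over 400 positions of 1 window that share a library.

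Depth moved with this agreement. Among free windows with a mean of 20 to 100 reads, 12 of 53 tRNA windows (22.6%) and 73 of 205 ORF windows (35.6%) had the same leading position. With a mean of 100 to 1000 reads, the counts were 29 of 52 (55.8%) and 1184 of 1598 (74.1%), and 11 of 23 snoRNA windows (47.8%). tRNA windows were shallower than ORF windows within each class, with medians of 54.5 and 230.5 reads against 61.5 and 467, so the classes do not match depth fully and the remaining gap was not tested.

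**Figure D5:**
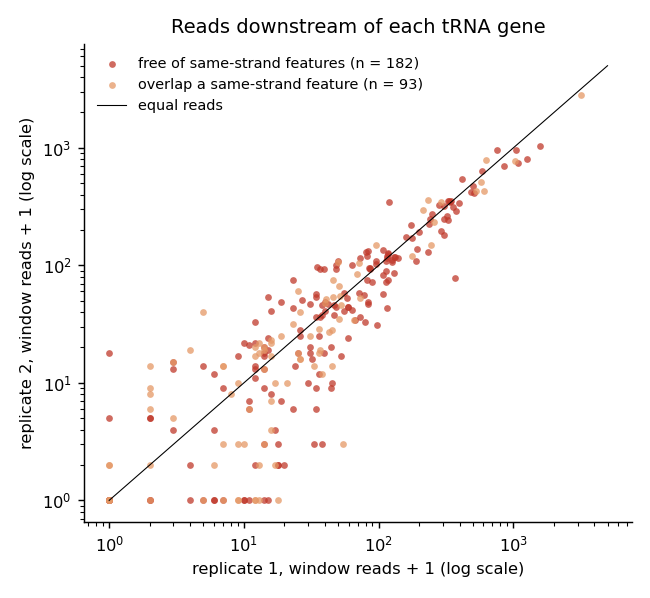
Window reads plus 1 in replicate 1 (x axis) and replicate 2 (y axis), both on log scales, for the 182 free tRNA windows and the 93 that overlap a same-strand feature; the line marks equal reads. Points lie near the line above about 100 reads and scatter widely below it, and tW(CCA)K at 368 and 77 reads lies far below the line.

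The largest endpoint differences were in windows of few reads. tH(GUG)E1 had mean endpoints of 179.4 and 103.1 nt from 38 and 92 reads, tT(AGU)D 296.4 and 227.7 nt from 46 and 45 reads, and tL(UAA)L 127.6 and 193.2 nt from 78 and 32 reads. tT(AGU)B had 112.0 and 164.9 nt from 107 and 82 reads, and tN(GUU)N1 152.0 and 100.8 nt from 94 and 108 reads. In tT(AGU)D and tT(AGU)B the leading position was still the same in both replicates, at 362 and 92 nt. The long endpoints of tD(GUC)J3, 334.7 nt ± 24.0, and tN(GUU)C, 304.9 nt ± 32.1 (SD, n = 2 each), rest on 47 and 92 and on 26 and 50 reads. Window reads, scaled by library depth, differed by more than a log2 ratio of 1 between replicates in 15 of the 107 free windows, against 150 of 5506 features. The median absolute log2 ratio was 0.295 against 0.211. Those features include deeper windows, and reads per window were not matched.

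A list of genes for tRNA synthesis, maturation or RNA 3' ends was also described by its windows. It held tRNA 3' end and RNA polymerase III factors, MOD5 and LOS1 of tRNA modification and export, and genes that act beyond tRNAs. The last include NRD1, NAB3, SEN1, MTR4, RRP6 and SPT15. All 26 genes had 20 or more reads in each replicate, against 88.8% of all features. Their medians were 1386.5 and 1209 reads, against 942 and 890.5 over all features, and 19 of the 26 windows were free. They ranged between 235 and 3574 reads in replicate 1 and between 231 and 4666 in replicate 2. Genes of the list thus lay on both sides of the medians of all features. The leading position was the same in both replicates in 25 of the 26 genes, against 79.5% of all features with 20 reads in each replicate. Those features include shallower windows than the listed genes, and depth was not matched. MOD5, of tRNA isopentenylation, was the exception with 70 and 239 nt. LHP1, the yeast La protein that binds the 3' ends of new RNA polymerase III transcripts, had 3574 and 3363 reads and a mean endpoint of 115.3 nt ± 1.30 (SD, n = 2). PAP2 and TRF5, the poly(A) polymerases of TRAMP, had 2163 and 2057 reads (PAP2) and 2764 and 2384 reads (TRF5). TRZ1, the nuclease that cuts the trailer from tRNA precursors, had 662 and 1036 reads, and RPC11, an RNA polymerase III subunit needed for termination, had 3364 and 3406.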

How the data were processed

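Poly(A) site reads of 3' READS libraries from 2 biological replicates of JZY65 were analysed. The submitters' processing notes name Bowtie. Not given in the sources used here are the Bowtie settings, the genome build and how reads that match several sites were placed. Per the file headers, the authors deposited, for each of 6198 features, signal values for reads inside it, in the window 1 to 400 nt after its end and at its most used position, and the percent of reads inside the feature. Further deposited columns give each position relative to the most used one. Printed coordinates are the files' own, and all 275 equal a tRNA gene of assembly R64.

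The deposited values were multiples of 0.858 and 0.940, and dividing by these gave whole reads, within 0.1, for 100% of the tRNA position values in both replicates. All values printed are these reads. The pooled table equalled the sum of the replicates at all 3634 tRNA positions with a read. With 1 group, no test was run and no p-value is given. Mean endpoints, leading positions and the spread of reads were summarised in windows with 20 or more reads in each replicate. Reads within 20 nt of the end were counted without this minimum. SDs are over 2 replicates, which measure only their own spread. Intervals, where given, are Wilson 95% intervals. Window sequences were not used here.

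Windows were named by rule: the 12 most read free windows, the 5 shortest and 5 longest endpoints, and the 5 highest in leading share, effective number, near-end reads and endpoint difference between replicates, the 5 most read that were not free, the 5 with most reads inside, and SUP4, TRT2 and TRR4. Members and lists were chosen with earlier results of these data known. Features taken from the neighbour columns gave stricter definitions of free windows, and the near-end share without its most read window was also computed, all chosen after seeing the data. Read recovery and position summaries were tested on simulated data. Python 3.11.15, numpy 2.4.6, pandas 2.3.3, scipy 1.17.1 and matplotlib 3.10.9 were used.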

Additional observations from a re-analysis of the deposited data

How the results depend on the processing

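Of 68 alternatives over 8 results, 35 stayed within the replicate spread or, for counts, within 1.5 times the value reported. Requiring none of the 6198 features on either strand left 88 free windows in place of 182, a leading share of 28.6%, a near-end share of 9.75% and 18 of 44 windows with the same leading position. Requiring also none of the repeats, other ORFs and origins of the neighbour columns left 68 windows, 35 of them with 20 reads, mean total reads of 6496, median reads of 35, an endpoint of 151.9 nt, a leading share of 28.3%, a near-end share of 8.67% and 15 windows with the same leading position; on the same strand alone it gave mean total reads of 19038 and median reads of 42.5. A minimum of 100 reads left 47 windows, a median endpoint of 151.7 nt, a leading share of 24.0%, a near-end share of 3.33% and 27 windows with the same leading position; a minimum of 5 reads gave a leading share of 32.4%. Mean total reads of 21055 became 18877.5 on the deposited scale and 15957 without the 5 most read windows, and median reads became 41.5 without windows reached from upstream and 44 from the pooled table. The endpoint became 142.1 nt over positions 1 to 300, 154.5 nt over 21 to 400, and 143.5 nt as a median position. The leading share over 5 neighbouring positions was 42.8%, and 67 windows agreed within 5 nt. The near-end share of 4.95% became 3.21% for 1 to 10 nt, 8.16% for 1 to 50 nt, 7.35% with windows weighted equally and 3.93% without tW(CCA)G2. The cause of these changes was not tested, apart from the narrower or wider definitions themselves. Leaving out a replicate gave medians of 43 to 43 reads, endpoints of 147.1 to 149.1 nt, leading shares of 27.3 to 28.0% and near-end shares of 4.66 to 5.24%. No paired analysis was possible because there is 1 group. Depth limits positions in the 75 free windows under 20 reads.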
